A study of Equus caballus with 6 samples.

Results

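The most read piRNA listed for mature horse testis, with a set of close variants, resembles the sense strand of ORF2 of the LINE-1 retrotransposon. The family was defined by sequence: a member shares an exact stretch of 20 nt or more with any of 3 leading sequences, uniq_274482, uniq_358364 and uniq_5105533. It holds 205 of the 4936717 distinct sequences of 25 to 32 nt in the table and 151388 of its 17914237 reads. The same search with the reverse complements found 1 opposite-strand sequence with 1 read. The 3 leading sequences were chosen with their read counts in these libraries known, so their levels are given as a description, with no test. The resemblance to LINE-1 comes with the rule and was not tested here, as no genome or repeat sequence was used. The list is labelled as newly found piRNAs. Ranks and shares hold within it, and whether known piRNAs were kept apart is not stated.

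Small RNAs were sequenced from whole testis of the Mongolian horse, with 3 libraries labelled immature testis and 3 labelled mature testis. Breed and tissue are the given traits. No age, genotype or treatment is stated, and nothing says that each library came from a separate animal, so p-values measure the spread between these libraries. The libraries held 1382083 to 2347351 reads of called piRNAs in immature and 4032042 to 4550970 in mature testis. In whole tissue, fewer cells of a type and less RNA per cell cannot be told apart.

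As background, LINE-1 elements copy themselves through an RNA that encodes an RNA-binding protein (ORF1) and a protein with endonuclease and reverse transcriptase activity (ORF2). piRNAs guide PIWI proteins, mostly in the germ line, to RNAs that they match. Antisense piRNAs can pair with the element's RNA, whereas sense piRNAs have the sequence of that RNA itself. A piRNA usually begins with uridine, written T in the table, and its 3′ end is trimmed after the 5′ end has been set. In the ping-pong cycle, cleavage guided by one piRNA leaves an opposite-strand piRNA whose 5′ end overlaps by 10 nt, and adenine at position 10 is the mark of the second partner.

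The 3 leading sequences are shown because they hold 87.6% of the family's reads and differ only at the 3′ end. They share their first 28 nt, and capitals mark the bases after that core.

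uniq_274482: tggataaataaattgtggtatatttctgCA

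uniq_358364: tggataaataaattgtggtatatttctgC

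uniq_5105533: tggataaataaattgtggtatatttctgT

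All 3 have T at position 1 and A at position 10. uniq_358364 is uniq_274482 without its last base, and uniq_5105533 differs from it by C29T and ends there, counting positions from 1 at the 5′ end. GC content of the 30 nt sequence was 26.7%. Read from its first base, the sequence held 0 stop codons in 10 codons, and each of the other sense frames held 1 in 9 codons. The reverse complement held 0 stop codons in each of its 3 frames, so the absence of a stop codon does not set the sense strand apart.

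The next 5 members by mean CPM (reads per 1000000 table reads of a library), with each library weighted equally, had the same 5′ end. They are shown because they are end variants, with capitals marking bases that differ from uniq_274482 or go beyond it.

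uniq_245094: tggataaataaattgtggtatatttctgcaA

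uniq_3500369: tggataaataaattgtggtatatttctgcT

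uniq_4333640: tggataaataaattgtggtatatttctgA

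uniq_360053: tggataaataaattgtggtatatttct

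uniq_2945031: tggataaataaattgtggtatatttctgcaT

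The family took a larger part of the listed piRNA reads in mature than in immature testis, and the immature libraries differed widely among themselves. It made up 1.13% (95% Wilson interval 1.12 to 1.14), 1.22% (1.21 to 1.23) and 1.04% (1.03 to 1.05) of table reads in mature replicates 1, 2 and 3. In immature replicates 1, 2 and 3 the shares were 0.0275% (0.0249 to 0.0304), 0.262% (0.255 to 0.269) and 0.123% (0.118 to 0.129). The groups did not overlap. The mature mean was 1.13% ± 0.0911 and the immature mean 0.137% ± 0.118 (SD, n = 3 each), a ratio of 8.21. Immature replicate 2 decided much of that ratio, which was 15.0 without it. Intervals cover counting error only, since the reads carry no molecular identifiers and copies of 1 molecule cannot be told from separate molecules.

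The leading sequence ranked first among the listed sequences of each mature library. uniq_274482 stood at 7699, 8538 and 7235 CPM in mature replicates 1 to 3, above the most read sequence outside the family in each (7588, 4497 and 4043 CPM). In the immature replicates it stood at 199, 1806 and 769 CPM, at ranks 102, 12 and 18. The mature mean was 7824 ± 660 CPM and the immature mean 925 ± 815 CPM (SD, n = 3), a ratio of 8.46, or 16.2 without immature replicate 2. The mature values lay close together and the immature ones spread over a wide range, with replicate 1 lowest.

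uniq_358364, 1 base shorter, stood at 1879, 1561 and 1607 CPM in the mature and at 36.2, 355 and 229 CPM in the immature replicates. Its ratio of means was 8.13, or 12.7 without immature replicate 2. uniq_5105533, with T as its last base, stood at 402, 402 and 318 CPM in the mature and at 10.1, 115 and 58.8 CPM in the immature replicates. Its ratio was 6.09, or 10.8 without immature replicate 2. The immature order, replicate 1 below 3 below 2, was the same for all 3 leading sequences, and for each of them every mature library exceeded every immature library.

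The immature libraries stood in a similar order for other sequences abundant in mature testis. Over the 100 most abundant sequences of mature testis outside the family, the median was 14.5, 52.8 and 38.6 CPM in immature replicates 1, 2 and 3 and 434 to 480 CPM in the mature libraries. Replicate 1 was the lowest immature library for 86 of these 100 sequences and replicate 2 the highest for 80. The family differed between immature replicates 2 and 1 by a factor of 9.53, and the medians of the 100 sequences by 3.65. The part of this spread between libraries in the family's values was not tested. Of the 100 sequences, 81 had a larger ratio of mature to immature testis than the family's 8.21. The median ratio of the 100 was 13.9 (0.0473 to 40.2), so some were higher in immature testis.

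Each distinct sequence was tested with edgeR's quasi-likelihood test, mature against immature testis, over the 31788 sequences of the table with enough reads, with p-values adjusted over all of them by the Benjamini-Hochberg method. TMM factors scale the libraries on the assumption that most sequences do not change, which was not tested. They were 0.36 to 0.442 for the immature and 2.38 to 2.62 for the mature libraries, which lowers mature values against immature ones. Of the 205 members 45 passed the filter, the 3 leading sequences and 42 others, and these 45 held 99.1% of the family's reads. Only the 42 others are counted as tested, and the 3 leading sequences are described. Most of the 42 had too few immature reads to pass the filter through those libraries. They passed it through the mature libraries, as the called members described below did. A count of 0 called higher in immature testis was thus largely set in advance and is no result about the members. Members also share 1 sequence and are not independent. With TMM factors 3 of the 42 were called higher in mature testis, where 8.41% of all tested sequences were, and 0 were called higher in immature testis, where 21.9% of all were. DESeq2 called 3 and 0, where it called 12.7% and 21.8% of all. The median log2 fold change of the 42 was 0.49, beside 0.62 over all tested sequences. On this scale the fitted log2 fold change of uniq_274482, given as a description, was 0.56. It depended on 1 library and on the filter: it was 1.87 without immature replicate 2, beside a median of 1.73 over all sequences then tested, and 2.07 without a filter beyond 6 reads, beside a median of 1.85.

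Scaling by library totals gave another picture, with 42 of the 42 called higher in mature testis, where 77.7% of all tested sequences were. The median log2 fold change was then 3.02 for the 42 and 3.15 for all tested sequences, and the fitted value of uniq_274482 was 3.08. The choice of scale shifted the median of all tested sequences about as far as that of the family.

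Other settings moved both the members' count and the background. Upper quartile factors called 15 of 42 members higher in mature testis (43.5% of all tested sequences). Requiring 10 CPM in 3 libraries left 24 members tested and 3 called (4.61%), and no filter beyond 6 reads called 28 of 108 (9.81%). A fit with the replicate number as a block called 2 of 42 (2.18%). Leaving out immature replicate 1, 2 or 3 called 3, 8 and 2 of 48 (3.35%, 11.7% and 3.35%), and leaving out mature replicate 1, 2 or 3 called 3 of 36, 3 of 36 and 3 of 37 (6.87%, 6.85% and 7.72%). Under these settings and library totals 0 members were called higher in immature testis, where 17.3% to 30.8% of all tested sequences were (20.3% with library totals). Because of how members passed the filter, this 0 is no result about them either.

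The end variants followed the leading sequence in direction of their CPM, and 0 of the 5 most abundant were called with TMM factors and the default filter. Without a filter beyond 6 reads, 3 of the 5 were called with TMM factors: uniq_245094, uniq_4333640 and uniq_2945031 (edgeR adjusted p = 0.0181, 0.0391 and 0.0272). uniq_245094, which adds an A, stood at 219, 388 and 190 CPM in the mature and at 4.34, 53.3 and 14.4 CPM in the immature replicates. Its log2 fold change was 0.94 ± 0.60 (SE, edgeR adjusted p = 0.241). Mature replicate 2 was its highest library, and the groups did not overlap.

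uniq_3500369, which has T as its last base in place of A, stood at 175, 254 and 200 CPM in the mature and at 2.17, 72.0 and 30.8 CPM in the immature replicates (log2 fold change 0.05 ± 0.60, edgeR adjusted p = 0.955). uniq_4333640, of 29 nt and ending in A, stood at 157, 153 and 105 CPM in the mature and at 5.06, 28.97 and 21.2 CPM in the immature replicates (0.36 ± 0.61, edgeR adjusted p = 0.681). Both were lowest in immature replicate 1 and did not overlap between the groups.

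uniq_360053, the 27 nt form, stood at 88.2, 120 and 108 CPM in the mature and at 4.34, 39.2 and 29.4 CPM in the immature replicates (-0.44 ± 0.60, edgeR adjusted p = 0.606). uniq_2945031, which adds a T, stood at 71.0, 69.4 and 58.4 CPM in the mature and at 2.17, 15.8 and 4.79 CPM in the immature replicates (0.53 ± 0.63, edgeR adjusted p = 0.544). The ratio of mean CPM was 4.33 for the 27 nt form and 11.1 for the 31 nt form uniq_245094, and this difference was not tested. Without immature replicate 2 these ratios were 6.23 and 28.4, and with TMM factors uniq_245094 and uniq_2945031 were then called (edgeR adjusted p = 0.0114 and 0.0427).

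The 3 members called with TMM factors carry 1 changed base near the 5′ end. They are shown with that base in capitals.

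uniq_3979292: Cggataaataaattgtggtatatttctgc

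uniq_4976570: Aggataaataaattgtggtatatttctgc

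uniq_2988027: tggatCaataaattgtggtatatttctgca

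The first pair are the 29 nt form uniq_358364 with T1C and T1A, so they lack the usual first uridine, and the other is uniq_274482 with A6C. uniq_3979292 had 100, 65 and 71 reads in the mature and 0, 2 and 0 reads in the immature replicates. uniq_4976570 had 65, 60 and 73 reads in the mature and 0, 1 and 1 in the immature replicates. uniq_2988027 had 49, 59 and 61 reads in the mature and 0, 1 and 0 in the immature replicates. The immature counts lay at or under the 3 reads that a count of 0 allows, 1.28 to 2.17 CPM by library.

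Their log2 fold changes were 3.04 ± 0.997, 2.73 ± 1.01 and 3.49 ± 1.19 in that order (SE, edgeR adjusted p = 0.0101, 0.0249 and 0.0143). All 3 passed the filter through the mature libraries alone, so a call could only go to mature testis. Their adjusted p-values are therefore no support for that direction. With so few immature reads these fold changes depend on the fit and on single libraries. Without immature replicate 2 they were 8.66, 3.42 and 8.17, and without immature replicate 3 the value of uniq_4976570 was 3.80. uniq_3979292 was not called without immature replicate 3 (edgeR adjusted p = 0.0569). Across the alternatives the edgeR or DESeq2 adjusted p of uniq_3979292 lay between 1.2e-08 and 0.0569, that of uniq_4976570 between 5.34e-08 and 0.0834 and that of uniq_2988027 between 3.37e-08 and 0.0469.

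Set against the leading sequence that each differs from by 1 base, these members had smaller shares in immature testis. T1C reads were 1.1% of uniq_358364 reads in mature testis (236 of 21384 reads, 95% Wilson interval 0.972 to 1.25) and 0.164% in immature testis (2 of 1219, 0.045 to 0.596). T1A reads were 0.926% (198 of 21384, 0.806 to 1.06) and 0.164% (2 of 1219, 0.045 to 0.596). A6C reads were 0.17% of uniq_274482 reads in mature testis (169 of 99217, 0.147 to 0.198) and 0.0177% in immature testis (1 of 5640, 0.00313 to 0.1). These shares pool the 3 libraries of a group and were not tested between groups, and the members were picked by their call. In the 29 nt form the same A6C change had 9, 8 and 13 reads in the mature libraries and 0 in each immature library, 0 of 1219 reads of that form, which allows a share of up to 0.314% (upper bound of the 95% Wilson interval).

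The family had almost a single 5′ end. Reads with the 5′ end of the leading sequences were 99.96% ± 0.00726 of the mature and 99.9% ± 0.117 of the immature family reads (SD, n = 3), in 200 of the 205 members. The other 5 members had 66 reads. They are shown with capitals for bases that differ from uniq_274482 or lie outside it.

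uniq_243749: taaataaattgtggtatatttctgca

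uniq_3270259: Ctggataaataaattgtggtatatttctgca

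uniq_2919392: taaataaattgtggtatatttctgcT

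uniq_3825240: Ttaaataaattgtggtatatttctgc

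uniq_8122698: aattgtggtatatttctgcaATGGAATGC

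uniq_243749 begins 4 nt downstream of the leading sequences, and had 11, 19 and 16 reads in the mature and 1, 4 and 1 in the immature replicates. uniq_3270259 begins 1 nt upstream, with 1, 2 and 4 reads in the mature replicates and 0 in each immature one. uniq_2919392, which also begins 4 nt downstream, had 5 reads in all, and uniq_3825240 and uniq_8122698 had 1 read each. uniq_8122698 begins 10 nt downstream and continues 9 nt past the end of uniq_274482.

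The 3′ ends were spread over several lengths, with nearly the same profile in both groups. Members of 30 nt held 73.9% ± 1.38 of the mature and 72.8% ± 4.17 of the immature family reads (SD, n = 3). Those of 29 nt held 20.8% ± 2.23 and 21.8% ± 3.7, and those of 31 nt 3.33% ± 0.879 and 2.42% ± 0.674. Members of 27 nt held 1.07%, 1.33% and 1.33% in the mature and 1.58%, 2.02% and 2.89% in the immature replicates, so that each immature library lay above each mature one. At 26 nt the means were 0.203% ± 0.0275 and 0.309% ± 0.173, a difference within the spread. No family read of 25 nt was listed.

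The whole table differed far more in length between the groups. Reads of 29 to 32 nt were 98.1% ± 0.254 of the mature and 97.0% ± 0.957 of the immature family reads, beside 71.5% ± 0.957 and 36.1% ± 2.9 of all table reads. Mean length was 29.8 nt ± 0.0241 and 29.7 nt ± 0.0704 in the family, beside 29.1 nt ± 0.0537 and 27.9 nt ± 0.122 in the table. The family's lengths follow largely from its choice, since leading sequences of 29 and 30 nt hold most reads, and the difference from the table was not tested. Among the other 202 members, mature reads were of 29 to 32 nt in 84.6% and immature reads in 76.9%.

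Variants that differ in the last base alone were most frequent at 29 nt. Of the reads that match the 28 nt core and have 1 further base, C, the base of uniq_274482, was 75.8% ± 2.95 of the mature and 71.4% ± 1.77 of the immature reads (SD, n = 3). T, which makes uniq_5105533, made up 16.8% ± 1.66 and 20.5% ± 2.06. By library T stood at 16.3%, 18.7% and 15.5% in the mature and at 19.7%, 22.8% and 18.9% in the immature replicates, so the groups did not overlap, with 18.7% and 18.9% close together. The Wilson interval of immature replicate 1 ran from 12.1% to 30.4%, on 14 reads with T, and that of replicate 3 from 15.5% to 22.7%. A made up 6.21% ± 1.02 and 7.47% ± 2.14, and G 1.15% ± 0.338 and 0.658% ± 0.58.

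At 30 nt the base of the leading sequence, A, held 96.97% ± 0.399 of the mature and 96.7% ± 1.94 of the immature reads. T held 2.59% ± 0.338 and 2.9% ± 1.58, C held 0.446% ± 0.0717 and 0.405% ± 0.384, and no form ending in G was listed. At 31 nt, 1 base past uniq_274482, A held 71.5% ± 4.39 and 69.1% ± 2.96, T 19.1% ± 4.7 and 25.9% ± 6.73, G 6.79% ± 1.24 and 4.06% ± 4.4, and C 2.67% ± 0.709 and 0.911% ± 1.58. At 27 nt, T, as in uniq_274482, held 78.8% ± 3.17 and 87.6% ± 10.9. These shares differed between the groups by less than the spread of the immature libraries or by little more.

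In the 30 nt form each single inner change was rarer than either listed change of the last base, although inner changes summed to more reads. Of the possible single-base changes inside uniq_274482, which had 104857 reads, 18 of 29 transitions (A with G, C with T) were listed, with 4040 reads, and 38 of 58 transversions, with 1177 reads. These counts include changes that lie outside the family because they leave no stretch of 20 nt. A listed transition had a median of 0.214% of the reads of uniq_274482 (0.0649 to 0.384) and a listed transversion 0.02% (0.00191 to 0.162). By comparison, the last-base variants uniq_3500369 and uniq_3500382, ending in T and C, had 2875 and 487 reads, or 2.66% and 0.45% of the 30 nt reads that differ from uniq_274482 at most in the last base. The summed transitions stood at 3.76%, 3.87% and 4.0% of uniq_274482 reads in the mature and at 3.27%, 3.18% and 4.44% in the immature replicates, overlapping between the groups. The most read inner variant of the 30 nt form was uniq_5187633 with A4G, at 100, 153 and 135 reads in the mature and 2, 6 and 7 in the immature replicates. Whether such forms were transcribed or arose in the library or on the sequencer was not tested.

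The 29 nt form uniq_358364, with 22603 reads, had 28 of 28 possible inner transitions and 48 of 56 transversions listed. The median was 0.226% of its reads for a listed transition and 0.0265% for a listed transversion, close to those of the 30 nt form. Summed over all changes the shares were larger than in the 30 nt form, 6.64% against 3.85% for transitions and 3.01% against 1.12% for transversions. By library transitions summed to 6.44%, 7.15% and 6.65% in the mature and 6%, 5.76% and 3.58% in the immature replicates. Transversions summed to 3.18%, 3.1% and 2.94% and to 2%, 2.28% and 1.19%. The groups did not overlap in either, which was not tested, and immature replicate 1 had 50 reads of uniq_358364. The changes T1C and T1A described above reached 1.05% and 0.885% over all libraries and were the most frequent of the transitions and of the transversions. In the 30 nt form no change at position 1 was listed.

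The family was richer in distinct sequences in mature testis. Members found numbered 138, 170 and 153 in the mature and 20, 89 and 49 in the immature replicates. Thinned to 1382083 table reads in each library, they numbered 110, 126 and 109 in the mature and 20, 70 and 49 in the immature replicates, and family reads then numbered 14474 to 16897 and 380 to 3629. The groups did not overlap, and the numbers followed the family's reads. Of the 205 members 18 were found in all 6 libraries, 113 in all 3 mature libraries, 112 in no immature library and 3 in no mature library, and 39 had 1 read in all. These counts depend on depth and do not show absence from immature testis.

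The first base and base 10 follow from the shared 5′ end in most members. T stood at position 1 in 199 members, with 99.7% ± 0.0482 of the mature and 99.96% ± 0.0351 of the immature family reads (SD, n = 3). In the whole table T stood there in 89.8% ± 0.611 and 75.5% ± 1.91 of reads. A stood at position 10 in 196 members, with 99.8% ± 0.0114 and 99.7% ± 0.179 of family reads, beside 30.4% ± 0.62 and 28.04% ± 1.02 of table reads. The leading sequences fix these shares, which are given as a description.

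On the opposite strand the table held 1 sequence with a stretch of 20 nt. It had 1 read, in mature replicate 3, against 47202 family reads in that library. It is shown because it is the sole partner, with the shared stretch in capitals.

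uniq_8596246: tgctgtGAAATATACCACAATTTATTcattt

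Its 5′ end, placed by the shared stretch without gaps, lies 2 nt past the 3′ end of uniq_274482. The bases between that 5′ end and the stretch do not match throughout, so the position rests on the stretch alone. Placed so, the 5′ ends of the pair span 32 nt, both end bases counted, where a ping-pong pair spans 10. In each immature library a count of 0 allows up to 3 reads, a share of up to 0.000217% of table reads in replicate 1, where the family had 0.0275%.

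A ping-pong partner that overlaps by 10 nt shares only those 10 nt and cannot be found with a 20 nt stretch. Sequences were therefore also counted whose first 10 nt are the reverse complement of a 10 nt window of uniq_274482. For the window at the 5′ end, the ping-pong position, there were 15 such sequences with 2, 3 and 4 reads in the immature and 1, 3 and 4 reads in the mature replicates. Of all 21 windows 12 had 0 sequences, 6 had 1 to 6 and 3 had more. The window that gives a 20 nt overlap had 19 sequences with 34 reads, and the one that gives a 30 nt overlap had 55 sequences with 100 reads. Of these 100 reads 73 were in immature testis, 52 of them in replicate 2 alone. By library they numbered 8, 52 and 13 in the immature and 7, 11 and 9 in the mature replicates. The sequences of these 3 windows begin with T, but so do those of 3 windows with 2, 6 and 2 sequences. A match of 10 nt does not place a sequence at the same element, and the reads at the ping-pong window were few beside the family's 151388.

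The threshold of 20 nt divides forms of one kind. Just inside it, 28 members with a longest shared stretch of 20 nt had 640 reads, at most 215 each, 34 in immature and 606 in mature testis. Just outside, 22 sequences with 19 nt had 740 reads, at most 304 each, 30 in immature and 710 in mature testis. A base change at positions 11 to 20 of the 30 nt form leaves no stretch of 20 nt, so such variants are not members. With up to 1 mismatch allowed in the stretch the family held 370 sequences and 154010 reads, and 2 opposite-strand sequences with 2 reads.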

How the data were processed

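Per the file headers and the values, the deposited table lists each distinct sequence with its raw read counts in the 6 libraries (whole numbers, not normalized by the authors). The submitters' processing notes name Bowtie. The build and the way piRNAs were called were not given in the sources used here. Table totals count called piRNAs and are not sequencing depth. Sequences were searched for shared stretches with Python 3.11.15, and CPM and shares are relative to table totals. Tests used edgeR 4.0.16 in R 4.3.3 over the whole table: filterByExpr with its defaults, TMM factors, quasi-likelihood F test, adjusted p under 0.05. The SE is the log2 fold change divided by the square root of F. Alternatives were library totals, upper quartile factors, DESeq2 1.42.0, other filters, a replicate block, each library left out, and other stretch lengths. The scripts were tested on simulated data. Libraries of one group differed beyond counting noise (chi-square 4.335 to 8.73 per sequence). The members and lists were chosen with earlier results of these data known. Named sequences are the 3 leading ones, the 5 other members with the highest mean CPM, and all called members. The rule also asked for 6 opposite-strand partners, of which there was 1. The rule was written for 3 families, which proved to be 1. Other members are named where they were the only ones of a kind or the most read, chosen after their values were seen.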

Additional observations from a re-analysis of the deposited data

How the results depend on the processing

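Scaling and filtering moved how many of the 42 tested members beside the leading ones were called higher in mature testis, and the share of all tested sequences too. The counts were 3 with TMM factors (8.41% of all) and 42 with library totals (77.7%). They were 15 with upper quartile factors (43.5%) and 28 of 108 without a filter beyond 6 reads (9.81%). Leaving out 1 library gave 2 to 8, where 3.35% to 11.7% of all were called so. The 8 came without immature replicate 2, where 11.7% of 51730 tested sequences were called so. With the replicate number as a block (replicate block) 2 were called (2.18% of all), and uniq_4976570 was lost (edgeR adjusted p = 0.0834). Deviations of same-numbered libraries from their group mean had correlations of 0.02, -0.067 and 0.0074, beside -0.0499 to 0.0489 for other pairs. Whether same-numbered libraries share an animal or a preparation is not stated and was not tested. The count higher in immature testis was 0 under all these settings, where 17.3% to 30.8% of all tested sequences were. Most members passed the filters through the mature libraries, so this 0 was largely set in advance and is no result about them. The opposite-strand sequence was tested under none of them.

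The sign of the log2 fold change of 4 named members depended on the setting. uniq_5105533, at 0.08 with TMM factors, was at -0.32 with the filter at 10 CPM and at -0.16 without immature replicate 1. uniq_3500369 was at -0.32 and uniq_4333640 at -0.10 with the filter at 10 CPM. uniq_360053 was at 2.10 with library totals, 0.45 with upper quartile factors and 1.12 without a filter. Leaving out 1 library gave -0.24 to 1.49 for uniq_3500369 and -0.64 to 0.48 for uniq_360053. The cause was not tested.

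The ratio of family shares ran from 5.86 to 15.0 when 1 library was left out. Without the leading sequences the shares were 0.0182% and 0.14% in immature and mature testis and their ratio 7.71. Opposite-strand reads numbered 6 with a stretch of 16 nt, 0 with 22 or 24 nt and 2 with 1 mismatch, and 0 to 1 when 1 library was left out. Thinning lowered the mature mean of members per library from 154 to 115.

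Immature and mature values, in that order, also moved when each distinct sequence was counted once: mean length 29.3 and 29.2 nt, share of 29 to 32 nt 83.9% and 78.8%, T at position 1 98.2% and 96.5%, leading 5′ end 97.3% and 97.8%. Without the leading sequences they were 29.3 and 29.6 nt, 76.9% and 84.6%, 99.7% and 97.3%, and 98.9% and 99.7%. Immature replicate 1, with 380 family reads, limits what can be read of rare variants.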

Other observations

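The table listed inner variants of the 2 most read forms unevenly. Of the single-base changes possible inside both, 50 were listed in both lengths, 26 in the 29 nt form alone, 4 in the 30 nt form alone and 4 in neither. The 26 had 1074 reads in the 29 nt form, up to 238 for 1 change, although the 30 nt form without a change had more reads in all (104857 against 22603). No change at positions 1, 2, 16 or 17 was listed in the 30 nt form, and each position of the 29 nt form had at least 1. The step that called sequences as piRNAs is not given, and its part in which variants are listed was not tested.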
